A study of Mus musculus with 6 samples.

Results

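Genes that mark the mural cells of vessels were examined in RNA-Seq data of bone marrow (BM) MSCs. The 10 genes comprised 5 pericyte genes (*Cspg4*, *Rgs5*, *Abcc9*, *Mcam* and *Notum*) and 5 contractile genes of smooth muscle (*Acta2*, *Tagln*, *Myh11*, *Cnn1* and *Des*). Each was found by its symbol in the deposited table, so that 10 of 56980 listed genes were followed, and the 2 sets were kept apart. The cells came from female mice that underwent ovariectomy (OVX) at 8 weeks of age. All recipients had their own gut microbiota depleted with antibiotics and then received fecal microbiota transplantation (FMT) by gavage for 8 weeks. Donors were sedentary osteoporotic mice for the TranspCtrl group (3 samples) and treadmill-exercised osteoporotic mice for the TranspExer group (3 samples). The mouse strain, and whether a sample was 1 mouse or a pool, were not given in the sources used here. The cells were whole marrow flushed from femurs and tibias and kept in culture for 7 days with washes, and no sorting step was described, so other adherent marrow cells could be present.

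Pericytes wrap capillaries and small vessels and share the basement membrane with the endothelium, and smooth muscle cells form the contractile layer of arterioles and larger vessels. Both are called mural cells, and in marrow they lie close to the stromal cells from which MSC cultures grow. Pericytes are usually recognized by surface and signalling genes, whereas smooth muscle is recognized by its actin, its myosin heavy chain and the proteins that regulate them. Cultured fibroblasts and MSCs often turn on *Acta2* and *Tagln* on plastic, so these genes alone do not mark smooth muscle. Contractile genes are controlled by serum response factor (SRF), which binds a short element called the CArG box together with myocardin family coactivators.

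The promoters of 7 of the 10 genes were found in the RefSeq table for GRCm38.p6, and *Notum*, *Tagln* and *Myh11* were not. The 4 shown are the 250 bases before the RefSeq start, 5′ to 3′ on the gene's own strand, because these genes include the main contractile actin, the contractile gene with the largest drop and the pericyte genes with the largest rises. Capitals mark a CArG box with at most 1 letter other than A or T in its core of 6. The first sequence lies at chr19:34255374-34255623 on the minus strand, and the others lie on the plus strand at chr9:22099003-22099252, chr1:169655251-169655500 and chr9:56864854-56865103.

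Acta2: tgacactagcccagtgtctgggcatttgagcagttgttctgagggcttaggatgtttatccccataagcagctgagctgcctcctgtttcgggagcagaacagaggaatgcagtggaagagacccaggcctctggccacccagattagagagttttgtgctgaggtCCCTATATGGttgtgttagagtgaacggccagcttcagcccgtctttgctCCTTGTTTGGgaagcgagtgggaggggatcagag
Cnn1: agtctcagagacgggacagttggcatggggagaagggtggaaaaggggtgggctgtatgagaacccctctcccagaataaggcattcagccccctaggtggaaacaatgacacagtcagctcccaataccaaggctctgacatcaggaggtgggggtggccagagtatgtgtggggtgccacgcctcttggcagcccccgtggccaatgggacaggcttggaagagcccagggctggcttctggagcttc
Rgs5: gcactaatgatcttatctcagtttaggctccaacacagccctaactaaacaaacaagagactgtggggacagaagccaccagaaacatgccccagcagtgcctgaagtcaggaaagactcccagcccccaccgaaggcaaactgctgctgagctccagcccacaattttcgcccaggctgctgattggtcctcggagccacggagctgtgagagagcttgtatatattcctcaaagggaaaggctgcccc
Cspg4: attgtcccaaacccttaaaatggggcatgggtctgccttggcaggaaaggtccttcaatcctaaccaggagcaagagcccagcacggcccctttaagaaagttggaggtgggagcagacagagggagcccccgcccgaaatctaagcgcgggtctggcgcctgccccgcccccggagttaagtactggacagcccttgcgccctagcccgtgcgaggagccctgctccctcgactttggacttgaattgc

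The *Acta2* promoter held 2 such elements, beginning 84 and 34 bases before the start, and neither was a CArG box without a change. The other 6 promoters, including those of *Cnn1* and *Des*, held none. Of 32851 promoter windows of the same length, 8.59% held the element with at most 1 change and 1.47% held it without a change. The element reads as the same pattern on both strands, and these matches describe letters within the window only.

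The members' values rest on estimated read counts from libraries of 17647638 to 21319166 counts, given as CPM, the usual unit of reads scaled to library size, with TMM factors, which adjust each library for the makeup of its RNA. A count of 3, the floor used here, equalled 0.139 to 0.174 CPM. The edgeR quasi-likelihood test was run over the 15190 genes that passed a filter on low counts. A gene was called when its Benjamini-Hochberg adjusted p-value was under 0.05 and its fold change was at least 2, the thresholds in the study's methods. TranspCtrl replicate 1 stood apart from its group, with a TMM factor of 1.08 where the other 5 were 0.967 to 1.01, so the counts of called members are also given without it.

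The 4 tested pericyte genes rose in the TranspExer group, and 3 of the 5 contractile genes fell. Of the 5 pericyte genes, 4 passed the filter and 4 were called higher, against a background of 3.5% of the tested genes called higher and 5.28% called lower. Of the 5 contractile genes, all of which were tested, only *Cnn1* was called, and it was lower. At the adjusted p-value alone, *Acta2*, *Tagln* and *Cnn1* were lower and *Myh11* was higher, where 15.5% of tested genes were lower and 16.6% higher. Without TranspCtrl replicate 1, the same 4 pericyte genes and 2 contractile genes were called, with *Cnn1* lower and *Myh11* higher. The contractile count was 3 without TranspCtrl replicate 2, 2 without TranspCtrl replicate 3 or TranspExer replicate 1 or 2, and 1 without TranspExer replicate 3. In the fits with 1 sample left out, 443 to 579 genes were called higher and 671 to 852 lower in all. The genes that joined *Cnn1* were *Tagln*, *Myh11* or both, and each kept its direction. The median log2 fold change was 1.55 over the 4 tested pericyte genes and -0.47 over the 5 contractile genes, beside -0.02 over all genes tested. For all 4 tested pericyte genes and for *Myh11*, every TranspExer sample was above every TranspCtrl sample, as for 27.2% of all tested genes. For *Acta2*, *Tagln* and *Cnn1* every TranspExer sample was below, as for 25.1% of them. In bulk samples such as these, fewer cells of a type and less RNA per cell cannot be told apart.

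**Figure D1:**
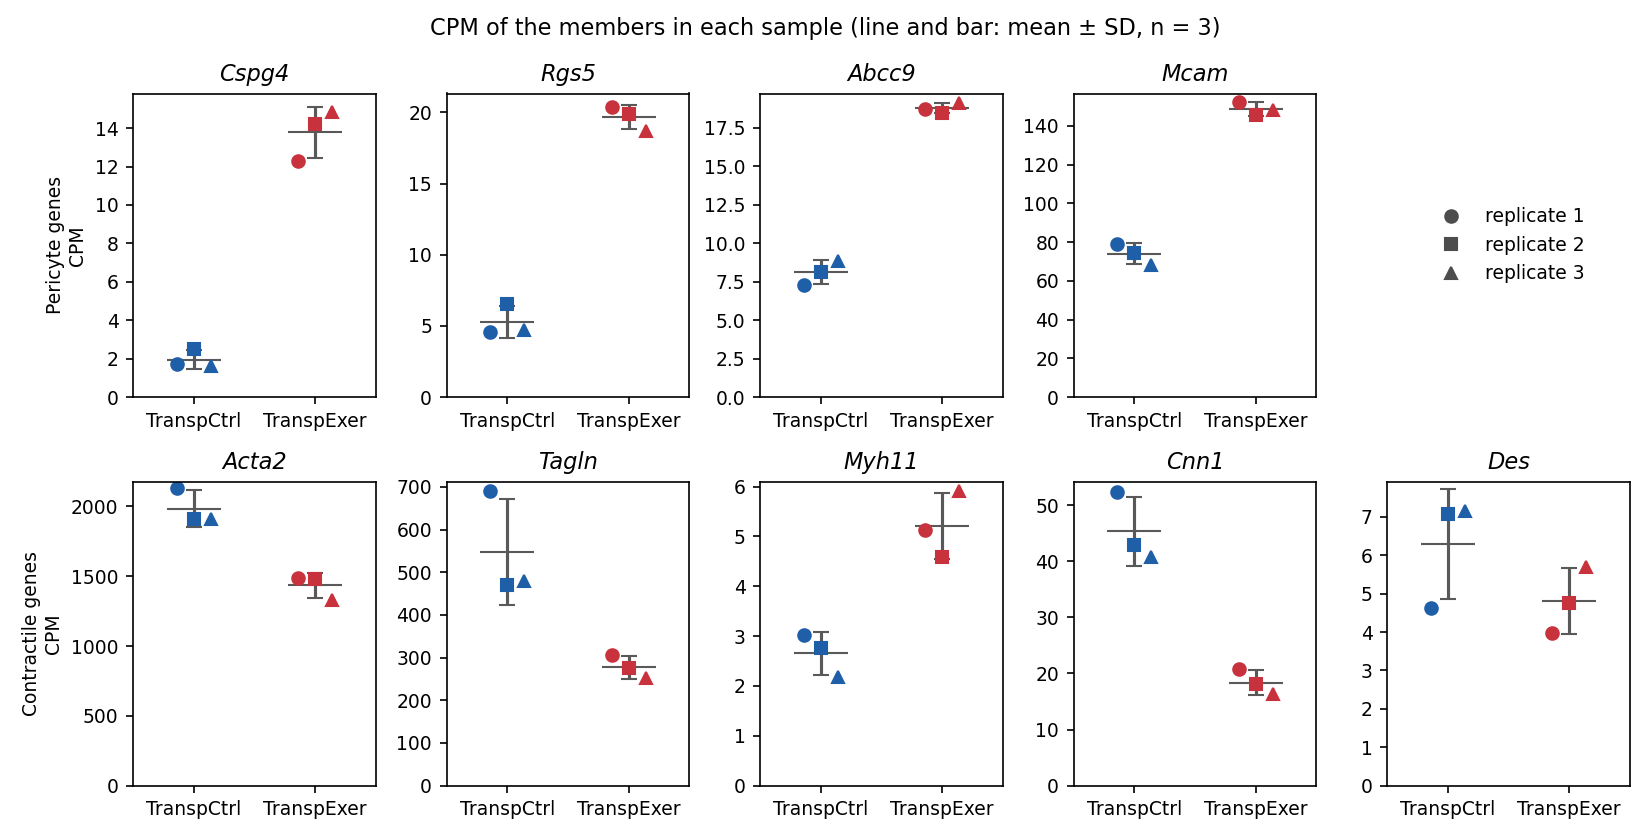
Level of each tested member in CPM (vertical axes, each from 0) in the 3 TranspCtrl and 3 TranspExer samples; points are samples, with a shape for each replicate number, and the line and bar give the mean and SD. The TranspExer samples are above all TranspCtrl samples for *Cspg4*, *Rgs5*, *Abcc9*, *Mcam* and *Myh11*, below them for *Acta2*, *Tagln* and *Cnn1*, and overlap them for *Des*.

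*Cspg4* (ENSMUSG00000032911, GRCm38 chromosome 9, 56865033 to 56899870) encodes NG2, a transmembrane proteoglycan of pericytes and of some progenitor cells. It had 1.71, 2.51 and 1.63 CPM in TranspCtrl replicates 1, 2 and 3 and 12.3, 14.2 and 14.8 CPM in the TranspExer replicates. The lowest TranspExer sample was far above the highest TranspCtrl sample, with 35 to 49 reads counted per TranspCtrl sample and 235 to 299 per TranspExer sample. The mean went from 1.95 ± 0.491 (SD, n = 3) to 13.8 ± 1.34 CPM (SD, n = 3), a 7.08-fold rise, or 2.82 ± 0.19 (SE) on the log2 scale (edgeR adjusted p = 6.65e-05). This was the largest change among the tested members in either direction.

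*Rgs5* (ENSMUSG00000026678, chromosome 1, 169655501 to 169695813) encodes a regulator that shortens signalling by G proteins, and it is among the most used pericyte transcripts. Its level was 4.58, 6.56 and 4.69 CPM in the TranspCtrl samples and 20.4, 19.9 and 18.7 CPM in the TranspExer samples. The TranspCtrl samples were more spread than the TranspExer samples, with a coefficient of variation of 21.1% against 4.35%, and the groups did not overlap. On the log2 scale the change was 1.90 ± 0.15 (SE, edgeR adjusted p = 0.000135), a 3.72-fold rise.

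*Abcc9* (ENSMUSG00000030249, chromosome 6, 142587862 to 142702315) encodes SUR2, the sulfonylurea receptor subunit of ATP-sensitive potassium channels in vascular cells. It had 7.31, 8.15 and 8.87 CPM in TranspCtrl and 18.8, 18.5 and 19.2 CPM in TranspExer. The TranspExer samples lay close together, and all were above the control range. On the log2 scale the change was 1.21 ± 0.11 (SE, edgeR adjusted p = 0.000218). *Kcnj8*, which encodes the Kir6.1 pore that pairs with SUR2, was likewise higher by 2.64-fold (adjusted p = 0.000233), at 5.32 ± 0.561 CPM in TranspCtrl and 14.1 ± 0.995 CPM in TranspExer (SD, n = 3).

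*Mcam* (ENSMUSG00000032135, chromosome 9, 44134469 to 44142727) encodes CD146, an adhesion molecule found on pericytes, on endothelial cells and on marrow stromal cells that form colonies. It was the most abundant of the pericyte genes per length, with 79.1, 74.5 and 68.3 CPM in TranspCtrl and 152.5, 145.4 and 148.1 CPM in TranspExer. The groups were separated by a wide gap although the rise was the smallest of the 4, at 1.01 ± 0.08 (SE) on the log2 scale (edgeR adjusted p = 0.000136). Its 2.01-fold change lay just inside the fold threshold, and without TranspCtrl replicate 3, TranspExer replicate 1 or TranspExer replicate 3 it was just outside, at 0.95, 0.98 and 1.00 on the log2 scale. Among the contractile genes, the changes of *Tagln* and *Myh11*, 1.97-fold and 1.96-fold, lay just outside it.

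*Notum* (ENSMUSG00000042988, chromosome 11, 120653788 to 120661175) encodes a secreted enzyme that removes the lipid from WNT proteins and so inactivates them. The TranspCtrl samples held 0, 0 and 2 reads of it and the TranspExer samples 0, 1 and 1. All 6 values were under the floor of 3 counts, so *Notum* was not detectable at this depth and gave no comparison.

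*Acta2* (ENSMUSG00000035783, chromosome 19, 34241090 to 34255590) encodes smooth muscle α-actin, the thin filament actin of smooth muscle and of activated fibroblasts. It had 2135, 1909 and 1909 CPM in TranspCtrl and 1489, 1480 and 1333 CPM in TranspExer. Every TranspExer sample was lower, and the step was small beside its level. The mean went from 1984 ± 130.3 (SD, n = 3) to 1434 ± 87.4 CPM (SD, n = 3), a change of -0.47 ± 0.09 (SE) on the log2 scale (edgeR adjusted p = 0.00818), or 1.38-fold.

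*Tagln* (ENSMUSG00000032085, chromosome 9, 45929619 to 45936058) encodes transgelin, or SM22α, which binds actin filaments. Its level was 689.5, 469.9 and 480.4 CPM in TranspCtrl and 305, 274.7 and 252.3 CPM in TranspExer. TranspCtrl replicate 1 was 1.45 times the mean of the other TranspCtrl samples, and the groups did not overlap with or without it. On the log2 scale the change was -0.98 ± 0.16 (SE, edgeR adjusted p = 0.00323), and -0.78 without that sample (adjusted p = 1.46e-06).

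*Cnn1* (ENSMUSG00000001349, chromosome 9, 22099216 to 22109630) encodes calponin, which binds actin and slows the cycling of myosin in smooth muscle. It had 52.3, 42.9 and 40.8 CPM in TranspCtrl and 20.8, 18.1 and 16.3 CPM in TranspExer. The highest TranspExer sample was well below the lowest TranspCtrl sample. The mean went from 45.3 ± 6.13 (SD, n = 3) to 18.4 ± 2.28 CPM (SD, n = 3), a change of -1.30 ± 0.13 (SE) on the log2 scale (edgeR adjusted p = 0.000372), or 2.47-fold lower.

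*Myh11* (ENSMUSG00000018830, chromosome 16, 14194535 to 14291372) encodes the smooth muscle myosin heavy chain, the most specific contractile marker of mature smooth muscle. It moved against *Acta2*, *Tagln* and *Cnn1*, with 3.02, 2.77 and 2.18 CPM in TranspCtrl and 5.12, 4.59 and 5.91 CPM in TranspExer. The groups did not overlap, with 47 to 62 reads counted per TranspCtrl sample and 79 to 119 per TranspExer sample. On the log2 scale the change was 0.97 ± 0.19 (SE, edgeR adjusted p = 0.00668), with a 95% interval of 0.54 to 1.40.

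*Des* (ENSMUSG00000026208, chromosome 1, 75360329 to 75368579) encodes desmin, the intermediate filament of all muscle types that is also present in many pericytes. It had 4.63, 7.08 and 7.15 CPM in TranspCtrl and 3.97, 4.76 and 5.71 CPM in TranspExer. TranspCtrl replicate 1 lay inside the TranspExer range, so the groups overlapped. The log2 fold change of -0.38 had a 95% interval of -0.88 to 0.11 (adjusted p = 0.204 from edgeR). Without TranspCtrl replicate 1 it was -0.56 (adjusted p = 0.0145).

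The members differed in level by several orders of magnitude. Expressed as CPM per kb of the deposited gene length, *Acta2* and *Tagln* led in both groups, with 975.1 ± 64.0 and 342.7 ± 77.7 in TranspCtrl and 704.7 ± 43.0 and 173.9 ± 16.6 in TranspExer (SD, n = 3). By the level averaged over the 6 samples, *Acta2* ranked 61 and *Tagln* 246 among the 15190 tested genes, whereas *Myh11* ranked 13437. *Mcam* and *Cnn1* followed in both groups. They were at levels of 24.7 ± 1.82 and 19.0 ± 2.58 CPM per kb in TranspCtrl and of 49.7 ± 1.20 and 7.72 ± 0.957 in TranspExer. The lower part of the order differed between groups. In TranspCtrl it ran *Des*, *Abcc9*, *Rgs5*, *Myh11* and *Cspg4*, and *Abcc9* and *Rgs5* overlapped at 1.31 and 1.29 CPM per kb. In TranspExer it ran *Rgs5*, *Abcc9*, *Cspg4*, *Des* and *Myh11*, and *Cspg4* and *Des* overlapped at 1.70 and 1.59 CPM per kb. Within each group, no other pair of neighbours overlapped over the 3 samples. The level of the smooth muscle myosin per length was thus far under that of the actin and transgelin in both groups.

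**Figure D2:**
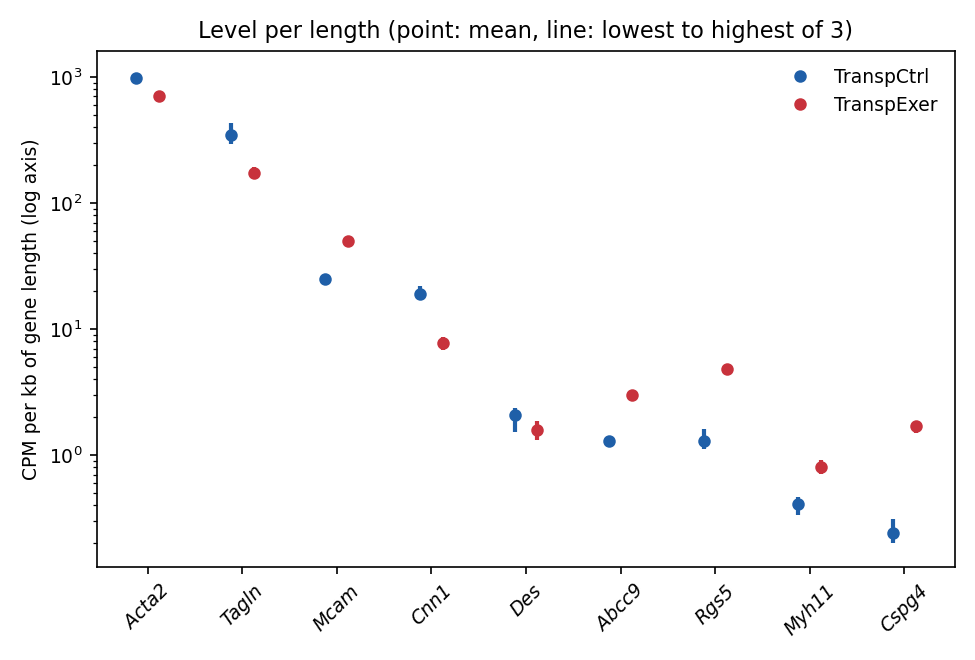
Level of the 9 tested members per length, as CPM per kb of gene length on a log axis, in order of the TranspCtrl mean; points are means and lines span the lowest to the highest of 3 samples. *Acta2* and *Tagln* are highest in both groups, and *Cspg4* is lowest in TranspCtrl, at 0.24, but above *Des* and *Myh11* in TranspExer, at 1.70.

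Ratios of members within a sample do not depend on scaling between samples. These pairs were chosen after their values were seen and are given without a test. The ratio of *Acta2* to *Cspg4* CPM was 1251, 759.9 and 1174 in TranspCtrl and 121.2, 104.1 and 89.9 in TranspExer. The ratio of *Cnn1* to *Myh11*, both contractile genes, was 17.3, 15.5 and 18.7 in TranspCtrl and 4.06, 3.94 and 2.76 in TranspExer. In every TranspExer sample both ratios were below every TranspCtrl sample, so the members changed unequally whichever scaling was used. Among the contractile genes, *Acta2* made up 76.9% ± 2.52 of the summed CPM in TranspCtrl and 82.4% ± 0.731 in TranspExer (SD, n = 3).

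The direction of single members depended on what they were scaled to. Markers of other marrow cells moved between the groups. Over all tested genes, 16.6% were higher and 15.5% lower at the adjusted p-value, and 3.5% and 5.28% were called. All 12 endothelial markers were higher at the adjusted p-value and 10 of them were called, with a median log2 fold change of 1.54. Their summed level was 235 to 287 CPM in TranspCtrl and 775 to 843 CPM in TranspExer, and the changes of the 5 with the smallest adjusted p-values, *Emcn*, *Stab2*, *Robo4*, *Kdr* and *Esam*, were 2.86-fold, 2.70-fold, 6.00-fold, 2.92-fold and 3.34-fold. Of 10 stromal markers, 8 were lower at the adjusted p-value and 4 were called lower, with a median log2 fold change of -0.66. Their summed level, 14080 to 22220 CPM in TranspCtrl and 13260 to 14530 CPM in TranspExer, overlapped between groups only through TranspCtrl replicate 1, at 14080 CPM beside 22220 and 21310 CPM in the other TranspCtrl samples, and came mostly from the type I collagen genes *Col1a1* and *Col1a2*. The called stromal genes were *Dcn* and *Lum* of matrix proteoglycans, *Col3a1* of type III collagen and *Pdgfra* of a PDGF receptor. Their levels went from 13.8 to 4.06, from 1.99 to 0.234, from 3040 to 1252 and from 111.8 to 55.8 CPM. The part of these cells in the members' changes was not tested, and the scalings that follow are descriptions of the members beside these lists.

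When size factors came from the endothelial markers, *Cspg4* was still higher in TranspExer by 1.30 on the log2 scale (adjusted p = 0.000129 from edgeR) and *Rgs5* by 0.37 (adjusted p = 0.0328). Relative to the same markers, *Abcc9*, *Mcam* and *Myh11* turned to -0.32, -0.53 and -0.56 (adjusted p = 0.0228, 0.000377 and 0.0239). This scaling shifts all genes by nearly the same amount, so it restates each member's change beside the median of the list, and single markers such as *Cdh5* and *Robo4*, at 2.02 and 2.59 with TMM, rose by more than *Rgs5* at 1.90. When size factors came from the stromal markers, the 4 pericyte genes and *Myh11* had log2 fold changes of 1.70 to 3.57, each at an adjusted p-value of 9.43e-05 or less. Relative to stromal markers *Cnn1* was still lower, by -0.57 (adjusted p = 0.0123), whereas *Tagln* at -0.25 no longer passed (adjusted p = 0.259) and *Acta2* turned to 0.27 (adjusted p = 0.0681). These scalings moved the median log2 fold change of all tested genes to -1.55 and 0.72. Their p-values take the size factors as known and leave out how far the markers of a list differ among themselves. Calls over all genes, 531 higher and 802 lower with TMM, became 30 higher and 13344 lower relative to endothelial markers and 3851 higher and 323 lower relative to stromal markers. Scaling to library size alone moved that median to -0.10. Under it and under upper-quartile scaling no tested member changed direction, and *Mcam* fell below the fold threshold while *Tagln* passed it, at 0.92 and -1.07 with library size.

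**Figure D3:**
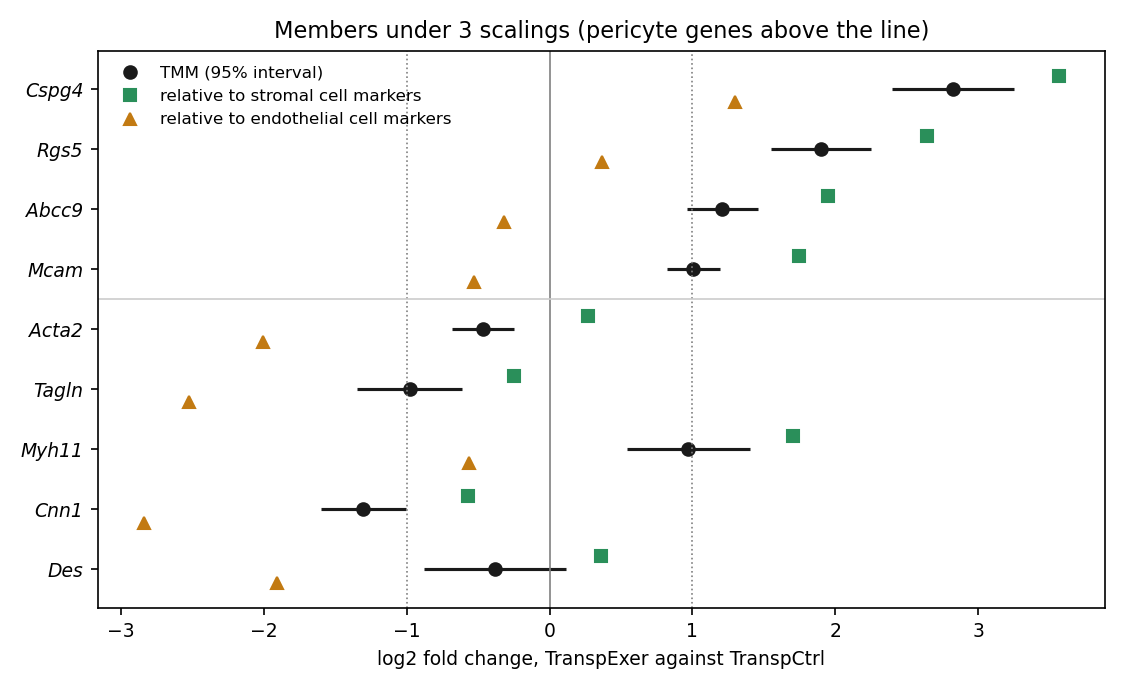
Log2 fold change of the 9 tested members in TranspExer against TranspCtrl (horizontal axis) with TMM scaling and its 95% interval (circles and lines), relative to stromal markers (squares) and relative to endothelial markers (triangles); dotted lines mark a fold change of 2. *Cspg4* and *Rgs5* are above 0 in all 3 and *Cnn1* and *Tagln* below 0 in all 3, while the other 5 change side.

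Other genes of pericytes, on a list of 14 chosen as textbook markers and partners, moved in both directions. Of 12 tested, 7 were higher and 1 lower at the adjusted p-value, with 4 called higher and 1 called lower and a median log2 fold change of 0.41. Over all tested genes, 16.6% were higher and 15.5% lower, with 3.5% and 5.28% called. Without TranspCtrl replicate 1, 7 genes of the list were higher and 3 lower, with 4 called higher and 1 called lower. Those called higher were *Kcnj8*, *Gucy1a1*, *Heyl* and *Notch3*. *Gucy1a1* encodes the α subunit of the nitric oxide receptor guanylate cyclase and rose 2.65-fold (adjusted p = 0.000302). The gene of its β partner, *Gucy1b1*, rose 1.34-fold (adjusted p = 0.0207). *Notch3*, the Notch receptor of mural cells, and *Heyl*, a target of that pathway, rose 2.40-fold and 3.07-fold (adjusted p = 0.000375 and 0.000389). *Ndufa4l2*, the gene of a mitochondrial protein that is abundant in pericytes and responds to hypoxia, had 17.7, 26.2 and 24.9 CPM in TranspCtrl and 4.39, 5.86 and 6.15 CPM in TranspExer. It fell by 2.07 on the log2 scale (adjusted p = 0.000261 from edgeR), against the direction of the tested pericyte members. *Pdgfrb*, the receptor through which pericytes are recruited and the most abundant gene of the list, rose 1.31-fold (adjusted p = 0.0237), at 202.9 and 265.5 CPM. *Higd1b* was too low to test, with 0, 1 and 0 reads in TranspCtrl and 8, 5 and 5 in TranspExer, and *Vtn* had 1 count in 1 sample and none in the others.

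Of 18 other contractile genes, 15 were tested, 2 were higher and 4 lower at the adjusted p-value, and 1 was called. Over all tested genes, 16.6% were higher and 15.5% lower at that p-value, and 3.5% and 5.28% were called. The called gene was *Kcnmb1*, the β subunit of the calcium-activated potassium channel of smooth muscle, which rose 2.73-fold from 1.09 ± 0.242 to 2.99 ± 0.673 CPM (SD, n = 3, adjusted p = 0.00527 from edgeR). The lower genes included *Tpm1*, *Cald1* and *Myl9*, of a tropomyosin, caldesmon and a myosin light chain, with log2 fold changes of -0.30, -0.27 and -0.39. *Rbpms*, an RNA-binding protein gene of smooth muscle, was higher by 0.84. The median over the 15 genes was 0.04, near that of all genes, with 8 genes above 0 and 7 below. Without TranspCtrl replicate 1 the median was -0.096. *Smtn*, *Mylk* and *Lmod1* did not pass the test (adjusted p = 0.0813, 0.308 and 0.128). Without TranspCtrl replicate 1 these 3 passed the adjusted p-value, as did 4 higher and 7 lower genes of the list in all, with 2 called.

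**Figure D4:**
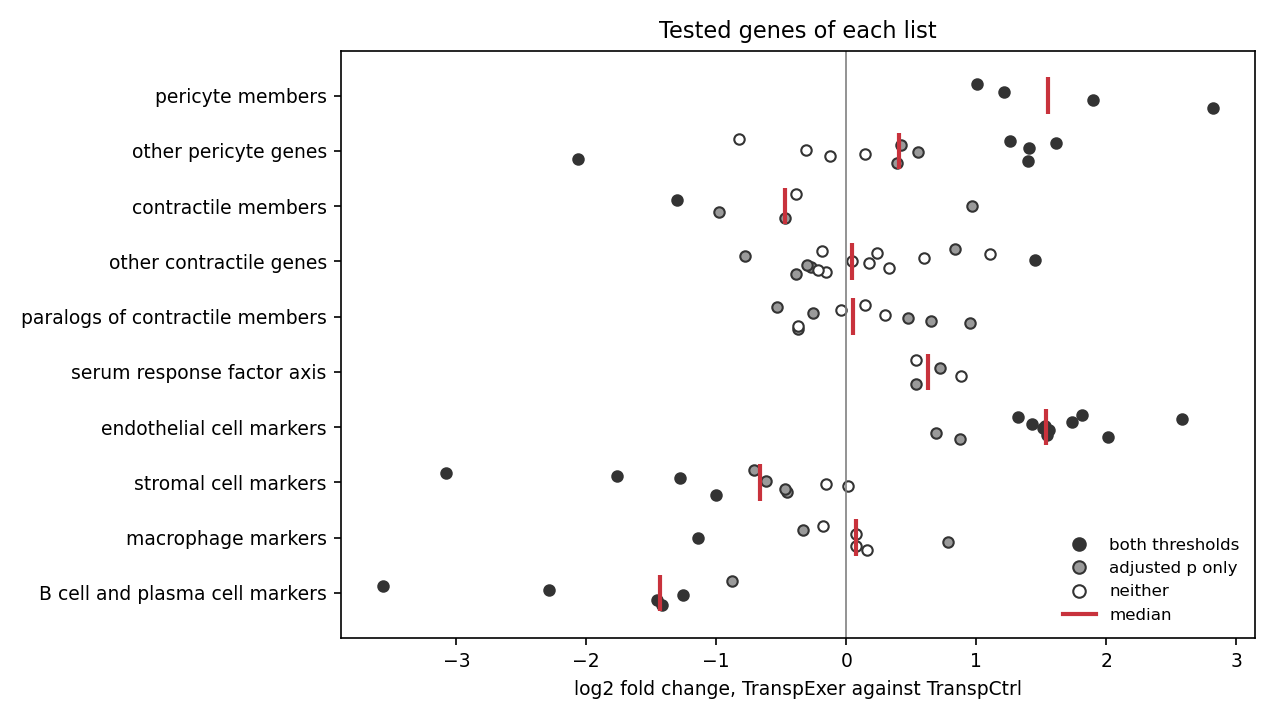
Log2 fold change in TranspExer against TranspCtrl (horizontal axis) of each tested gene in 10 lists (rows); black points passed both thresholds, grey points the adjusted p-value alone and white points neither, and the red line is the list's median. The pericyte members lie near the endothelial markers, with medians of 1.55 and 1.54, and the contractile members are spread on both sides of 0.

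With TMM scaling, the regulators of contractile genes did not move with *Acta2*, *Tagln* and *Cnn1*. Of 4 regulators, 2 were higher at the adjusted p-value, beside 16.6% of all tested genes. On a list of SRF and its coactivators, *Mrtfa* and *Srf* were higher in TranspExer by 0.72 and 0.53 on the log2 scale (adjusted p = 0.00428 and 0.00849 from edgeR). *Mrtfb* differed by 0.54 (adjusted p = 0.0531), and by 0.36 without TranspCtrl replicate 1 (adjusted p = 0.0107). *Myocd*, the coactivator restricted to heart and smooth muscle, was scarce at 6 to 24 counts, with a log2 fold change of 0.88 (adjusted p = 0.148). The largest of the 4 fold changes was 1.84.

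Several relatives of the contractile genes in non-muscle cells moved the other way. *Actb*, cytoplasmic β-actin, had 3910, 8588 and 8453 CPM in TranspCtrl and 13510, 12880 and 14150 CPM in TranspExer, a log2 fold change of 0.95 (adjusted p = 0.0299), and TranspCtrl replicate 1 was far below its group. *Actg1*, cytoplasmic γ-actin, and *Tagln2*, a transgelin of many cell types, were higher by 0.65 and 0.48 (adjusted p = 0.0359 and 0.00374). Without TranspCtrl replicate 1, *Actb*, *Actg1* and *Tagln2* were higher by 0.66, 0.44 and 0.43. *Cnn2* did not pass the test at -0.04, with a 95% interval of -0.21 to 0.14. *Cnn3*, *Actg2* and *Myh10* were lower by -0.53, -0.37 and -0.25 (adjusted p = 0.00222, 0.0201 and 0.041). Of the 13 relatives, 10 were tested, and 3 were higher and 3 lower at the adjusted p-value, beside 16.6% and 15.5% of all tested genes. Fold changes went up to 1.94, that of *Actb*, which was 1.585 without TranspCtrl replicate 1. The median of the list was 0.05 on the log2 scale. *Actg2* encodes the γ-actin of enteric smooth muscle, which is nearly identical to smooth muscle α-actin. The values of *Acta2* were not whole in 4 of 6 samples and those of *Tagln* in all 6. How reads were shared out between such genes was not given in the sources used here.

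Markers of cells that share members with the mural lists were mostly scarce. Desmin is also a skeletal muscle protein, and of 11 skeletal muscle markers 7 (*Myh1*, *Myh2*, *Myh4*, *Ckm*, *Myod1*, *Myog* and *Pax7*) had at most 3 counts in every sample. The summed level of all 11 was 3.38 to 4.14 CPM in TranspCtrl and 2.15 to 2.40 CPM in TranspExer, and the 3 tested genes, *Actn3*, *Tnni2* and *Mylpf*, had adjusted p-values of 0.0581, 0.433 and 0.795. *Actn3* was at 1.63 CPM in TranspCtrl and 0.794 CPM in TranspExer, and was called lower without TranspCtrl replicate 1 (2.26-fold, adjusted p = 0.024). *Cspg4* is also expressed by oligodendrocyte precursors and some glia, and *Sox10*, *Olig1* and *Olig2* had at most 3 counts in every sample. The most abundant gene of that list, *Mbp*, which blood cells also express, had a 1.23-fold change (adjusted p = 0.043), and the list's sum was 29.7 to 35.2 CPM in TranspCtrl and 38.3 to 41.9 CPM in TranspExer.

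Blood cell genes were abundant in all samples. The summed level of 7 macrophage markers was 8459 to 12910 CPM in TranspCtrl and 6506 to 7029 CPM in TranspExer, led by *Lyz2*, lysozyme, the 1 gene called, which was lower by -1.14 on the log2 scale (adjusted p = 0.00873). TranspCtrl replicate 1 was far above its group for *Lyz2*, at 9089 CPM beside 4890 and 5231 CPM, and without it the change was 1.74-fold, under the fold threshold. Without *Lyz2* the other 6 summed to 3483 to 3824 CPM in TranspCtrl and 3797 to 3921 CPM in TranspExer, and these ranges overlapped. *Cd68* was higher by 1.72-fold (adjusted p = 0.000377), *Mrc1* lower by 1.26-fold (adjusted p = 0.0159), and the median log2 fold change of the list was 0.07. Against 5.28% of all tested genes, 5 of 6 B cell and plasma cell markers were called lower, among them *Mzb1*, *Jchain*, *Ms4a1* and *Cd79a*. Their summed level was 1780 to 2187 CPM in TranspCtrl and 485.5 to 544.5 CPM in TranspExer. The part of these cells in the members' changes was not tested.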

How the data were processed

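Per the labels, RNA was extracted from marrow MSCs of the recipients and sequenced as stranded mRNA libraries, and mm10 was named as the genome build. The authors deposited estimated counts (expected counts, not normalized) for 56980 genes, with a gene length in bases. The aligner, counting tool and annotation are not given in the sources used here. For all 10 members the length equalled that of a GENCODE M21 transcript, and positions came from that annotation (GRCm38). Counts were rounded to whole numbers, and 10.1% to 12.2% of values in a sample were not whole. Some members overlap another gene on the opposite strand: *Abcc9*, *Mcam*, *Notum* and *Des* an antisense gene, and *Tagln* an antisense gene and *Pcsk7*. How such reads were assigned is unknown.

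The main fit was edgeR's quasi-likelihood test with group as its single term (version 4.0.16 in R 4.3.3), after filterByExpr and TMM scaling, with Benjamini-Hochberg adjustment over 15190 genes. The SE of a log2 fold change was its size over the square root of its F value. With 3 samples against 3, p-values rest on the variance shared across genes, and measure only the spread between these samples. The alternatives were DESeq2 1.42.0, other scalings and filters, a test of the fold change of 2 within the model, a replicate block, and each sample left out. Size factors from a marker list were the median ratio of its tested genes to their geometric mean. The tests were checked on simulated counts with independent samples and equal numbers of genes raised and lowered. No simulated library stood apart, so the check does not cover a sample like TranspCtrl replicate 1.

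The members and lists were chosen with earlier results of these data known. Named were all members and, in each other list, up to 5 called genes with the smallest adjusted p-values, the most abundant gene, and marker genes with at most 3 counts in every sample. Other genes named (such as *Srf*, *Actg1*, *Cnn3*, *Gucy1b1*, *Higd1b*, *Cd68* and *Myl9*) were chosen after their values were seen. Some genes that the lists count are not reported here by name.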

Additional observations from a re-analysis of the deposited data

How the results depend on the processing

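Scaling to marker lists, with size factors taken as known, had the largest effect on the calls. Relative to endothelial markers, 1 pericyte and 4 contractile genes were called, with 30 genes higher and 13344 lower in all, and *Abcc9*, *Mcam* and *Myh11* reversed to -0.32, -0.53 and -0.56 (adjusted p = 0.0228, 0.000377 and 0.0239). Relative to stromal markers, 3851 genes were higher and 323 lower, *Acta2* turned to 0.27 without passing the test (adjusted p = 0.0681), and the contractile gene called was *Myh11*, higher, in place of *Cnn1*. With the fold change of 2 tested in edgeR's model, 138 genes were higher and 274 lower, 2 pericyte genes (*Cspg4* and *Rgs5*) were called, and 0 contractile genes were, with 1 at an unadjusted p under 0.05. DESeq2 called 4 pericyte genes and 1 contractile gene, *Cnn1*, with 522 genes higher and 777 lower in all. The count of contractile genes was 2 under upper-quartile scaling, under library size alone and with a minimum of 1 CPM, where *Tagln* joined *Cnn1* and 925, 941 and 699 genes were lower in all. With 1 sample left out it ranged from 1 to 3, as *Tagln* and *Myh11* crossed the fold threshold, with 443 to 579 genes higher and 671 to 852 lower in all. *Des* passed the adjusted p-value in 2 alternatives, without TranspCtrl replicate 1, at -0.56, and relative to endothelial markers, at -1.91. The pericyte count was 3 or 4 with a sample left out, and 3 under upper-quartile scaling, library size alone, no filter and the minimum of 1 CPM, each time without *Mcam*, whose fold change was at least 2 in 7 of the 15 alternatives. Under the latter settings, in that order, 454, 445, 603 and 442 genes were called higher in all. No filter left 28201 genes tested, and the minimum of 1 CPM left 14022. With the replicate number as a block, 4 pericyte genes and 1 contractile gene were called, with 519 genes higher and 767 lower in all. Deviations of equally numbered samples correlated at 0.025, -0.002 and 0.042 over all genes tested. Whether such samples were handled together cannot be told from these values. Of the 15 alternatives, *Cspg4* and *Rgs5* passed the adjusted p-value in the same direction in 15, *Cnn1* in 14, and *Abcc9*, *Mcam*, *Acta2*, *Tagln* and *Myh11* in 13. Depth limited *Notum*, *Higd1b*, *Vtn* and *Myocd*.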
